A study of Mus musculus with 8 samples.

Results

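The cells described here are follicle keratinocytes of mouse skin chosen by co-detection of 8 genes, Sostdc1, Fst, Aldh3a1, Ccl27a, Alox12e, Foxc1, Fcgbp and Zmynd15. A cell barcode was kept with 500 to 4000 detected genes, at most 20000 unique molecular identifiers (UMIs, which count captured RNA molecules) and at most 10% mitochondrial UMIs. Of 11118 such filtered cells, 814 (7.32%) carried at least 4 of the 8 genes, fewer than 3 of Krt79, Defb6, Cst6, Klk7 and Sprr1a, fewer than 4 of Ptn, Grem1, Lhx2, Npnt, Nrtn, Bdnf, Tgm5 and Shisa2, less than 2% of UMIs from Krt1 and Krt10, and no Ptprc, the pan-leukocyte antigen CD45. They were 27.5% of the 2959 filtered cells with a keratinocyte or follicle profile. The libraries came from dorsal skin of female BALB/c mice aged 14 to 16 weeks that received PBMCsec (the factors that irradiated blood mononuclear cells release into their medium) or vehicle under the skin (4 libraries each). By the study's methods, injected mice carried scars of full-thickness wounds on the back, and the injections went into these scars. The labels named neither the time point nor the vehicle solution. The study's methods give 2 control injections, NaCl solution and culture medium, so the vehicle libraries may hold either or both, which cannot be told apart here. The study's methods place the sampling of injected mice at 2 times, directly after the injections and after a further untreated interval, so libraries of 1 group may mix both times, which cannot be told apart here. Nothing stated that each library came from a different mouse, so p-values measure the spread between these samples. Enzymatically dissociated biopsies were sequenced from the 3′ end of polyadenylated RNA in droplets.

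The 8 libraries held 14753926 to 37880651 UMIs over all 26231 barcodes. PBMCsec libraries 1 to 4 contributed 101, 18, 232 and 103 of the 814 cells, and vehicle libraries 1 to 4 contributed 17, 35, 196 and 112. PBMCsec 2 and vehicle 1 therefore had the least material, 236061 and 168255 UMIs in these cells against 378418 to 2070913 in the other 6. The median mitochondrial share per library was 4.82% to 6.56% in the chosen cells and 4.14% to 5.28% in all filtered cells. No barcode belonged to a chosen cell in more than 1 library, while 78 barcodes occurred in more than 1 library before any limits. Whether a barcode of the 814 cells was among these 78 was not examined.

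Hair follicles open to the surface through the infundibulum, and the isthmus or junctional zone lies beneath it, above the bulge that holds slow-cycling stem cells. Keratinocytes of the isthmus maintain the upper follicle and, with the sebaceous duct, feed the sebaceous gland. Along the follicle, bone morphogenetic protein (BMP), activin and Wnt signals and their secreted antagonists set whether epithelial cells rest, divide or differentiate. The upper follicle is also a site where microbes and topical chemicals enter and where keratinocytes recruit leukocytes.

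Sostdc1, a secreted antagonist of BMP that also modulates Wnt receptors, lies at chr12:36314139-36318452 (GRCm38, plus strand), and Fst, encoding the activin antagonist follistatin, at chr13:114452290-114458951 (minus strand). Aldh3a1, an aldehyde dehydrogenase, lies at chr11:61207537-61218421 (plus strand). Ccl27a, a chemokine for skin-homing T cells, lies at chr4:41769467-41774247 (minus strand), and Alox12e, an epidermal lipoxygenase, at chr11:70315610-70322628 (minus strand). Foxc1, a forkhead transcription factor, lies at chr13:31806633-31812476 (plus strand), Fcgbp, an IgG Fc binding protein, at chr7:28071236-28120862 (plus strand), and Zmynd15, a zinc finger protein, at chr11:70459433-70466202 (plus strand).

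Promoters of these 8 genes and of the 24 genes with the largest ratio over other keratinocytes, named further on, were read for the letters bound by factors whose mRNA was present in these cells, AGATAA (or TTATCT on the other strand) for GATA proteins and GCGTG (or CACGC) for the aryl hydrocarbon receptor. RefSeq promoters of build GRCm38.p6, the 250 bases before a transcript start, were matched by symbol for 26 of 32 genes, 4 of the 8 among them. Of their 42 promoters, 5 held the GATA letters and 11 the receptor letters, beside 9.99% and 28.2% of all 32851 promoters. The Ccl27a sequence (chr4:41770213-41770462, minus strand) is 1 of 3 RefSeq starts of that gene and is shown for its 2 AGATAA matches. The Alox12e (chr11:70322531-70322780, minus strand) and Foxc1 (chr13:31806396-31806645, plus strand) sequences are shown for their GCGTG match. Capitals mark these letters, which do not overlap and are no evidence of binding.
Ccl27a promoter: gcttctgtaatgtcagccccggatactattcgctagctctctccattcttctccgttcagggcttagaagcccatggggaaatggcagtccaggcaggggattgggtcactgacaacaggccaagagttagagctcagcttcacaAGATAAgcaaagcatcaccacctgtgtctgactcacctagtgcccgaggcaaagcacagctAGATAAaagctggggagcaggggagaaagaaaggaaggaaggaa
Alox12e promoter: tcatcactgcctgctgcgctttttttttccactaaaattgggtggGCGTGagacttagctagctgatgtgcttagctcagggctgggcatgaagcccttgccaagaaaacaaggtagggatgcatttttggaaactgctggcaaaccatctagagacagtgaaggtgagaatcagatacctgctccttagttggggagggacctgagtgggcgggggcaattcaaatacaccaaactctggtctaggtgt
Foxc1 promoter: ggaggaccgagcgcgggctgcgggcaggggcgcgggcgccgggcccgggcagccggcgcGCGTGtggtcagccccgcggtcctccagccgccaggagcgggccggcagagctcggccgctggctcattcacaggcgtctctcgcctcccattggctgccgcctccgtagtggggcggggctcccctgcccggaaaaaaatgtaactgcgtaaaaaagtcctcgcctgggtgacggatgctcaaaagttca

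Detection of the 8 genes chose the cells, so their levels are given without a test. Levels are CPM, the UMIs of a gene summed over the cells of a library and scaled to the same total in every library, so values are set side by side within a gene and not between genes. Sostdc1 was at 646, 572, 1033 and 1060 CPM in PBMCsec libraries 1 to 4 and at 874, 811, 1155 and 1141 CPM in vehicle libraries 1 to 4. Fst was at 1241, 402, 1014 and 763 CPM in PBMCsec libraries and at 1195, 1039, 982 and 828 CPM in vehicle libraries. PBMCsec 2 was the lowest library for both genes, and the treatment groups overlapped for both. Between libraries of the same number, Sostdc1 was lower in PBMCsec in 4 of 4 pairs and Fst in 2 of 4. Aldh3a1 varied least among the 8, from 250 to 401 CPM. Zmynd15 ranged from 23.8 to 190 CPM and was lowest in vehicle 2 and highest in vehicle 1.

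The comparison cells met the same limits, lacked Ptprc and carried fewer than 4 of the 8 genes. They were 1401 remaining Krt5 Krt14 keratinocytes (at least 1% of UMIs from Krt5 and Krt14, under 2% from Krt1 and Krt10, 8 libraries), 531 cells of a gate on the bulge-associated genes of the rule (the Lhx2 Grem1 gate, 7 libraries with at least 10 cells) and 125 cells of a gate on its infundibular genes (the Krt79 Defb6 gate, 4 libraries). Sostdc1 averaged 911 ± 222 CPM (SD, n = 8) in the chosen cells and 61.7 ± 33.4 CPM in the remaining keratinocytes. Fst averaged 933 ± 268 and 36.8 ± 25.5 CPM. Alox12e and Foxc1 did not separate the chosen cells from the Krt79 Defb6 gate, where they averaged 323 and 137 CPM, against 319 and 127 CPM in the chosen cells. Fcgbp was also abundant in the remaining keratinocytes (267 ± 158 against 393 ± 145 CPM).

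**Figure D1:**
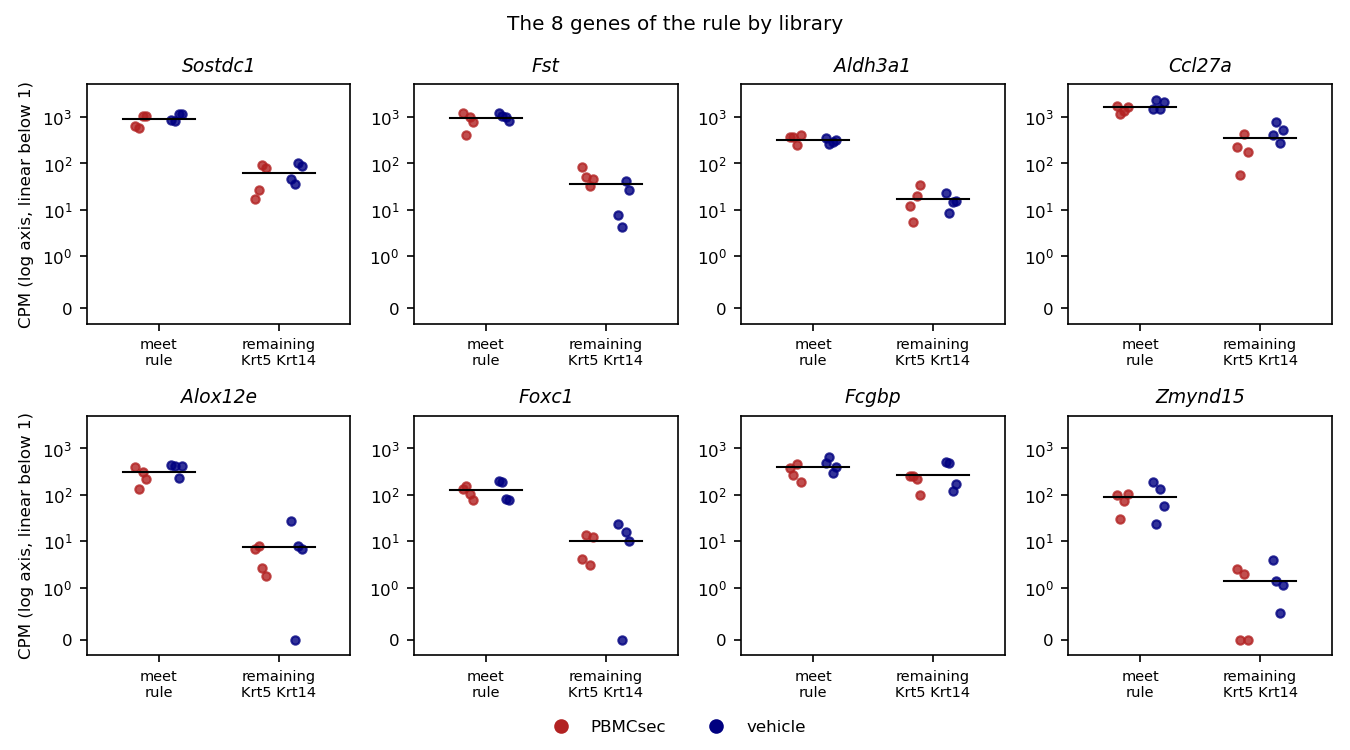
CPM (log axis, linear below 1) of the 8 chosen genes in each library, for the cells that meet the rule and for the remaining Krt5 Krt14 keratinocytes, with PBMCsec libraries in red, vehicle libraries in blue and a line at the mean of the 8 libraries. Sostdc1, Fst, Aldh3a1, Ccl27a, Alox12e, Foxc1 and Zmynd15 do not overlap between the sets of cells, while Fcgbp does (393 against 267 CPM on average).

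Ccl27a was detected in 97.8% of the 814 cells, Sostdc1 in 92.6%, Fst in 85.3%, Aldh3a1 in 79.7%, Fcgbp in 63.8%, Alox12e in 56.0%, Foxc1 in 47.5% and Zmynd15 in 34.4%. In 2194 Ptprc-positive cells, which should lack most of these RNAs, the shares were 1.23% to 4.60%. Those cells were shallower, with library medians of 3037 to 5610 UMIs per cell against 7008.5 to 15161.5 in the chosen cells.

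Exactly 4 of the 8 genes were detected in 208 cells, 5 in 198, 6 in 194, 7 in 163 and all 8 in 51. A further 315 cells that passed every other condition carried exactly 3. For the following levels the UMIs of each set were pooled over all libraries, whose parts of the cells differ between sets. From cells with exactly 3 over cells with exactly 4 to cells with 7 or 8, Lrig1 was at 68.4, 126 and 268 CPM and Gata6 at 7.85, 26.4 and 118 CPM. Gja1, which encodes the gap junction protein connexin 43, was at 865, 311 and 25.5 CPM over the same sets, and Fabp5 at 796, 259 and 30.3 CPM. Krt14 was at 13106, 11687 and 4264 CPM. Krt15 did not follow this order, at 4340, 3484 and 4259 CPM over the same sets. Detection of the 8 chosen genes defines these sets, so their own levels are shaped by the split. Of these 8, Fcgbp was at 218, 170 and 587 CPM and Foxc1 at 53.0, 48.5 and 172 CPM. The rest of the 8 rose from set to set (Sostdc1 264, 815 and 1128 CPM).

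Among the 814 cells, with library means removed, the first principal component held 4.71% of the variance of 1000 genes. Sfn, Klf4 and the immediate early genes Dusp1, Junb, Atf3, Jun and Fosb led one end, and Nfib, Apoe, Nfix and Emp2 led the other. The second (3.83%) ran from Gapdh and mitochondrial respiratory genes such as Cox5a to the nuclear RNAs Malat1 and Neat1, and moved with UMIs per cell (Spearman rho 0.48 across cells that share libraries). The third (2.18%) ran from differentiation and desmosome genes (Dsp, Dmkn, Sbsn, Krtdap) to Ifitm3, Btg2, Fst, Rgs10 and Rgcc, and cells with more of the 8 chosen genes lay toward the second of these ends (rho -0.38), to which Fst, itself one of the 8, belongs.

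The basal keratins Krt5 and Krt14 were detected in 98.6% and 99.0% of the cells, and in 18.1% and 29.0% of the shallower Ptprc-positive cells (median depths above). Beside the remaining keratinocytes, a gene was counted as higher or lower when its mean CPM differed at least 2-fold after adding 10 CPM to both and in the same direction in every library, which 1.86% and 2.38% of 8614 measured genes met (160 and 205 genes). Since the same cells were chosen on expression, these are descriptions. Among markers of the upper follicle and isthmus, Lrig1, Gata6, Nebl and Krt79 were higher, of which Krt79 is used by the rule, with log2 ratios of 1.85, 2.80, 2.01 and 3.25 beside a median of 0.02 over all measured genes. Lrig1, a brake on epidermal growth factor receptor signaling that marks isthmus stem cells, was at 206, 250, 197 and 177 CPM in PBMCsec libraries and 422, 307, 181 and 191 CPM in vehicle libraries, against 33.3 to 82.5 CPM in the remaining keratinocytes. Every library of the chosen cells lay above every library of the remaining keratinocytes, and vehicle 1 was the highest.

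Plet1 was at 218 ± 93.8 against 140 ± 71.9 CPM (SD, n = 8) and higher in 8 of 8 libraries without reaching 2-fold. Lgr6, a receptor that also marks isthmus stem cells, was lower in 8 of 8 libraries (25.8 ± 12.7 against 39.6 ± 17.8 CPM), and Teddm3 had 1 UMI. Cst6, a gene the rule used, was at 11.9 to 326 CPM in the 8 libraries of the chosen cells and averaged 32904 CPM in the Krt79 Defb6 gate, and in vehicle 4, the highest, 271 of its 324 UMIs came from 1 cell. The label thus rested on Lrig1, Gata6 and Nebl beside the remaining keratinocytes, while Plet1 did not reach 2-fold, Lgr6 went the other way and Teddm3 was nearly absent. Beside the Krt79 Defb6 gate none of these 3 genes met the rule for higher, and Krt79, Krt17, Nebl, Teddm3 and Cst6 were lower. Gata6 was detected in 32.8% and Lrig1 in 48.0% of the cells of that gate, and Lrig1 was lower there in 4 of 4 libraries without reaching 2-fold. Of 11 measured bulge markers 1 was higher (Nfatc1) and 3 were lower (Lhx2, used by the rule, Sfrp1 and Col18a1), and of 9 measured suprabasal markers 2 were lower (Sbsn and Dsg1a). Among sebaceous markers Acsbg1 was higher (191 ± 54.7 against 47.3 ± 15.5 CPM) and Fabp5 lower, and Plin5 had no UMI.

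Markers of further cell types were uneven. Cdh5 of endothelium had no UMI, and Cd3e, Lyz2 and Cd207 of T cells, myeloid cells and Langerhans cells had 11, 22 and 9 UMIs in 814 cells, whereas Cd74 of the same immune list was found in 19.8% of the cells and H2-Aa in 14.6%. Col1a1 was found in 12.8% of the cells, and fibroblast markers summed to 430, 1339, 444 and 379 CPM in PBMCsec libraries 1 to 4 and to 143, 336, 586 and 162 CPM in vehicle libraries 1 to 4, led by Postn, which keratinocytes also carried here (341 CPM in the remaining ones). PBMCsec 2 was the highest for fibroblast and for suprabasal markers (3478 CPM summed, against 398 to 1845 CPM in the other 7 libraries). This library held 18 chosen cells, and all 36 of its Col1a1 UMIs came from 1 cell.

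Among genes outside the rule, detected in at least 25% of the chosen cells and higher in every library, the 24 with the largest ratio over the remaining keratinocytes were Rgcc, Pdlim4, Gata6, Slco2b1, Acsl4, Adh7, Ldhb, Rgs10, Igfbp4, Gm13305, Aadac, Igsf9, Adamts9, Vsnl1, Ptpre, Susd2, Moxd1, Nebl, Glul, Prlr, Egr2, Fam117a, Dapk2 and Lrig1. Gata6, a transcription factor of the junctional zone and sebaceous duct, was at 85.1, 80.5, 88.8 and 58.1 CPM in PBMCsec libraries and 101, 66.1, 85.5 and 57.3 CPM in vehicle libraries. The remaining keratinocytes ranged from 0 to 11.4 CPM, so the sets did not overlap, and Gata6 was detected in 39.8% of the chosen cells. Adh7, an alcohol dehydrogenase that oxidizes retinol, was even across libraries (203 to 295 CPM) and averaged 270 ± 32.3 against 37.8 ± 22.2 CPM. Acsl4, which activates polyunsaturated fatty acids, averaged 212 ± 90.7 against 27.4 ± 18.6 CPM. Slco2b1, an organic anion transporter, averaged 57.6 ± 25.3 against 0.642 ± 0.957 CPM. Rgcc, a regulator of the cell cycle, averaged 130 ± 44.3 against 5.22 ± 3.63 CPM. Of 4018 distinct stretches of 31 bases in the annotated Gm13305 transcripts, 2661 also occur in transcripts of Il11ra1 and 1269 in those of Il11ra2. The split of UMIs among these genes is therefore uncertain. The same holds for Ccl27a of the rule, where of 2563 stretches 965 also occur in Gm20878, 716 in Gm13306 and 302 in Ccl27b.

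Among genes detected in at least 25% of the remaining keratinocytes and lower in every library, the 8 with the lowest ratio were Igfbp3, Gja1, Fabp5, Serpinb2, Id4, Sox6, Chit1 and Myof. Gja1 averaged 110 ± 98.6 against 1516 ± 655 CPM, and Fabp5, a fatty acid binding protein, 109 ± 75.8 against 1348 ± 835 CPM. Igfbp3 was at 0 to 15.1 CPM in 7 libraries and at 97.4 CPM in PBMCsec 2, and averaged 546 ± 296 CPM in the remaining keratinocytes.

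**Figure D2:**
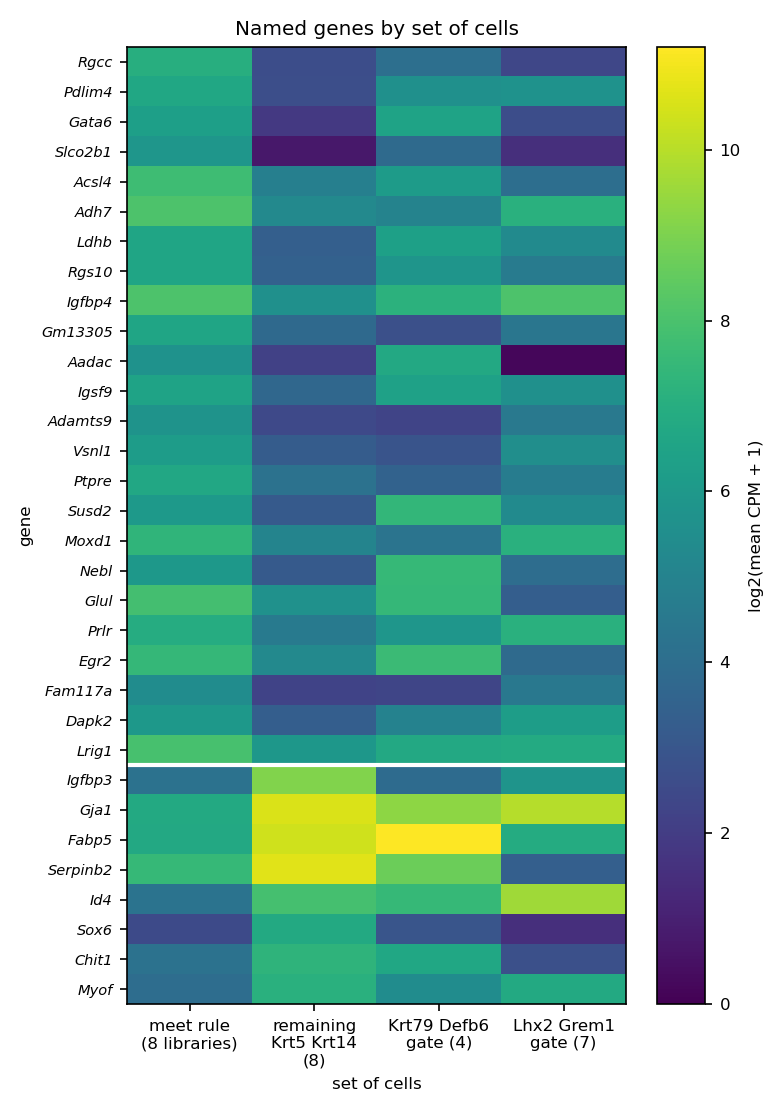
Color gives log2(mean CPM + 1) of the 24 genes highest (above the white line) and 8 lowest against the remaining keratinocytes, in the cells that meet the rule and 3 compared sets, with the number of libraries in parentheses. Gata6, Susd2 and Egr2 are at similar or higher levels in the Krt79 Defb6 gate, while Adh7, Gm13305 and Adamts9 are low there.

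Against the Krt79 Defb6 gate, 451 genes (5.11% of 8831) were higher and 560 (6.34%) lower in 4 libraries. By the same selection the largest ratios were Gm13305, Adh7, Jag2, Ccdc3, Col17a1 and Slco2a1. Jag2, a Notch ligand, was at 173 ± 54.6 CPM (SD, n = 8) in the chosen cells and 14.0 CPM in the gate, and Col17a1, the hemidesmosomal collagen of basal cells, at 770 ± 147 against 107 CPM. Lowest were 2310046K23Rik, Ly6g6c, Asprv1 and Teddm3, which were at 2170, 1849, 1006 and 285 CPM in the gate and at 15.9, 20.3, 18.5 and 0.0898 CPM in the chosen cells. Of 12 suprabasal markers, all 12 were lower than in the gate, although Krt1 and Krt10 among them are limited by the rule in the chosen cells and not in the gate. Of 19 cell cycle genes 16 were higher than in the gate. The gate also held Krt25 and Tchh of the inner root sheath (1799 and 3306 CPM) and Col1a1 (574 CPM), so it was not a pure infundibular set.

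Against the Lhx2 Grem1 gate, 285 genes (3.11% of 9172) were higher and 553 (6.03%) lower in 7 libraries. The largest ratios were Clca3a2, Ly6d, Ahr, Fgfbp1, Glul and Rgcc, and the lowest Sfrp1, Id4, Nppc and Scrg1. Clca3a2 was at 804 ± 255 CPM (SD, n = 8) against 18.1 CPM, and Sfrp1, a secreted Wnt antagonist, at 54.1 ± 24.6 against 1639 CPM. Glul, glutamine synthetase, was at 234 ± 83.8 against 9.11 CPM. Of 12 bulge markers 11 were lower than in this gate, Nfatc1 being the exception (37.7 against 60.7 CPM). The gate was chosen on bulge genes that the rule limits in the chosen cells, Lhx2 of this list among them, so the count is not independent of either choice.

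Of 40 measured transcription factors of skin epithelium, 9 were higher than in the remaining keratinocytes (Foxc1, Sox7, Sox21, Gata6, Nfatc1, Ehf, Irx1, Irx4 and Vdr) and 4 lower (Lhx2, Klf5, Ets2 and Bnc1), of which Foxc1 and Lhx2 are used by the rule. Sox7 averaged 71.3 ± 20.3 against 14.4 ± 14.1 CPM (SD, n = 8), and Ehf, an ETS factor of epithelia, 79.9 ± 21.9 against 21.1 ± 21.6 CPM. Vdr, the vitamin D receptor, averaged 243 ± 54.3 against 99.3 ± 25.2 CPM. Of 45 factors measured against the Krt79 Defb6 gate, Nfib and Nfix were higher (918 against 363 CPM and 767 against 240 CPM). Lower than in that gate were 9, Foxq1, Lhx2, Elf5, Grhl1, Grhl3, Ovol1, Zfp750, Dlx3 and Prdm1. Of 13 measured keratins 1 was higher than in the remaining keratinocytes (Krt79, used by the rule) and 4 lower (Krt5, Krt14, Krt6a and Krt16), of which Krt5 and Krt14 also chose the remaining keratinocytes, while Krt15, a keratin of bulge and basal cells, was at 3747 ± 685 against 3939 ± 1322 CPM.

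The BMP and activin antagonists of the rule were the only ones of 6 measured antagonists that were higher than in the remaining keratinocytes. Nbl1 (63.8 ± 9.33 against 72.5 ± 17.7 CPM, SD, n = 8) and Twsg1 (73.8 ± 36.2 against 69.8 ± 15.2 CPM) differed by less than their spread. Nog and Grem1 were under 10 CPM, and Grem1 is among the genes that the rule limits. Of 9 ligands Bmp7 was higher (93.0 ± 25.7 against 30.2 ± 6.92 CPM), and Bmp3 and Bmp4 were lower (0.664 against 28.2 CPM and 7.18 against 47.8 CPM). None of 9 receptors met the 2-fold rule in either direction (Bmpr1a 67.6 against 89.7 CPM, Bmpr2 128 against 136 CPM). Among 5 target genes Id4, an inhibitor of differentiation, was at 18.2 ± 17.5 against 237 ± 158 CPM and lower in 8 of 8 libraries, whereas Id1, Id2, Id3 and Smad7 did not meet the rule. Id4 was higher still in the Lhx2 Grem1 gate (772 CPM).

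Of 7 measured Wnt ligands 4 were lower (Wnt3, Wnt5a, Wnt7b and Wnt16) and 0 higher. Wnt3 averaged 44.1 ± 29.5 against 156 ± 66.5 CPM (SD, n = 8), and Wnt4 was lower in 8 of 8 libraries without reaching 2-fold (148 ± 17.3 against 256 ± 65.6 CPM). Beside the Lhx2 Grem1 gate the order was different, with Wnt3 and Wnt10a of 5 measured ligands higher in the chosen cells (3.82 and 40.0 CPM in the gate, 105 CPM for Wnt10a here) and Wnt5b lower (2.24 against 22.5 CPM). Among 11 receptors Fzd5 was lower, and Fzd7 was higher in 8 of 8 libraries below 2-fold (72.9 ± 15.4 against 33.1 ± 16.3 CPM). Of 10 target genes Ccnd1, the G1 cyclin D1, was lower (92.0 ± 16.4 against 310 ± 103 CPM), and the feedback gene Axin2 was at 33.1 ± 15 against 20.7 ± 12 CPM. Of 6 Wnt antagonists, Sostdc1 of the rule was higher and Sfrp1 lower.

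**Figure D3:**
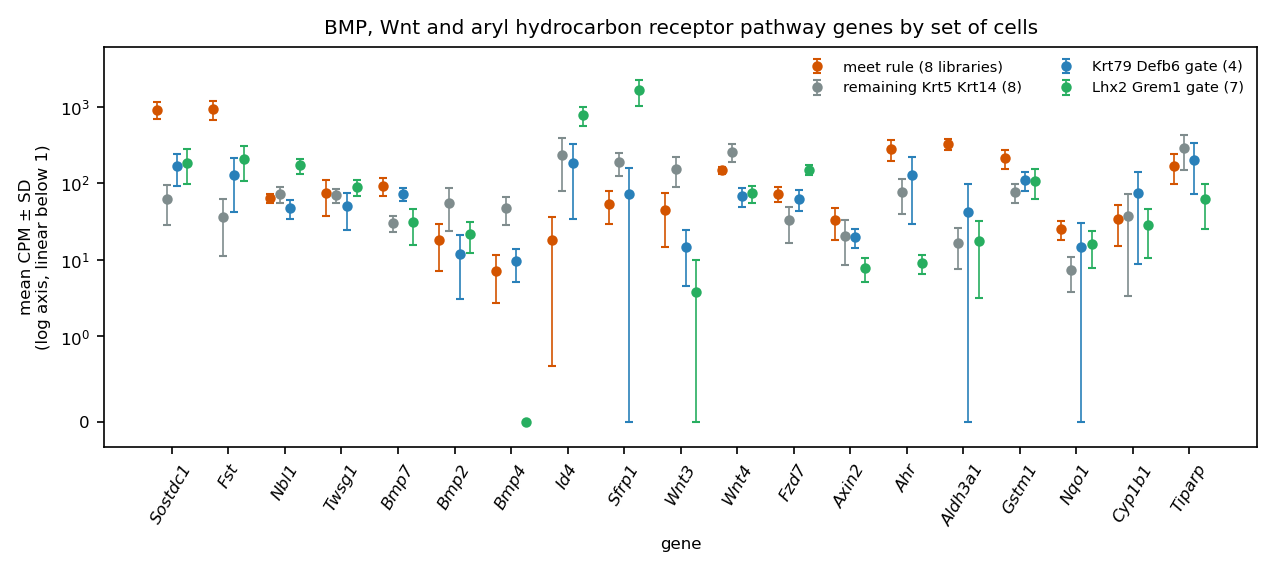
Mean CPM ± SD over libraries (log axis, linear below 1, lower bars end at 0) of BMP, Wnt and aryl hydrocarbon receptor pathway genes in the cells that meet the rule, the remaining Krt5 Krt14 keratinocytes and both gates. Sostdc1, Fst, Aldh3a1 and Ahr are highest in the cells that meet the rule, and Id4 and Sfrp1 are highest in the Lhx2 Grem1 gate (772 and 1639 CPM).

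Of 25 measured genes of aldehyde and xenobiotic metabolism, 5 were higher (Aldh3a1, Gstm1, Nqo1, Ahr and Akr1c18) and 1 lower (Cbr2), Aldh3a1 being a gene of the rule. Ahr, the ligand-activated aryl hydrocarbon receptor, was at 337, 275, 291 and 160 CPM in PBMCsec libraries and 446, 270, 250 and 211 CPM in vehicle libraries. Its mean of 280 ± 85.4 CPM (SD, n = 8) compared with 77.3 ± 37.6 CPM in the remaining keratinocytes, 126 CPM in the Krt79 Defb6 gate and 9.06 CPM in the Lhx2 Grem1 gate. The glutathione transferase Gstm1 averaged 212 ± 60.4 against 77.2 ± 21.2 CPM and the quinone reductase Nqo1 24.9 ± 7.0 against 7.31 ± 3.51 CPM. Target genes of the receptor did not follow in one direction. Cyp1a1 and the repressor Ahrr had no UMI in 814 cells, which allows a share of up to 0.369% of cells with a UMI, counting error only. Cyp1b1 was at 34.0 ± 18.7 against 37.6 ± 34.2 CPM, and Tiparp was lower in 7 of 8 libraries (167 ± 70.1 against 286 ± 137 CPM).

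Of genes of retinoid metabolism, Fabp5 and Lrat, which esterifies retinol, were lower (Lrat 3.41 ± 3.48 against 26.3 ± 18 CPM, SD, n = 8). Stra6, a retinol transporter, was at 18.3 ± 12.5 against 0.274 ± 0.496 CPM and higher in 7 of 8 libraries. Of 13 measured lipoxygenase and barrier lipid genes Alox12e of the rule was the one called higher, and 0 were lower.

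Of 17 measured chemokines and cytokines, 4 were higher (Ccl27a, Ccl2, Cxcl16 and Il7) and 2 lower (Cxcl14 and Il33), Ccl27a being a gene of the rule. Ccl2, a monocyte attractant, ranged from 51.3 to 272 CPM and averaged 112 ± 72.8 against 4.74 ± 8.16 CPM (SD, n = 8), and was detected in 18.6% of the cells. Of its UMIs 70.2% came from 20 cells, and PBMCsec 3, the highest library, was at 117 CPM without the 1 cell that held 323 of its 564 UMIs. Cxcl16 averaged 211 ± 54.2 against 80.4 ± 44.6 CPM and Il7, a survival factor of lymphocytes, 24.4 ± 14.9 against 0.795 ± 0.774 CPM. The alarmin Il33 averaged 14.8 ± 8.64 against 99.4 ± 44.7 CPM. Cxcl10 was uneven, from 0 to 359 CPM, and was found in 8.23% of the cells.

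Of 16 measured antigen presentation genes, 4 were higher (the immunoproteasome subunit Psmb9, the class II chains H2-Ab1 and H2-Eb1, and Cd74, the class II invariant chain) and 0 lower. Cd74 averaged 119 ± 92.6 against 12.5 ± 18.7 CPM (SD, n = 8). Class I genes differed by less than 2-fold (H2-K1 1454 ± 142 against 1111 ± 222 CPM, higher in 8 of 8 libraries). Of 11 interferon-stimulated genes Irf1 and Ifitm3 were higher, the latter at 1267 ± 421 against 548 ± 247 CPM. Of 12 antimicrobial and wound genes the defensins Defb1 and Defb6 were higher, the latter a gene of the rule, and Krt6a, Krt16, Serpinb2 and Fosl1 lower.

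Of 26 immediate early and dissociation stress genes, Egr2, Hspa1a and Hspa1b were higher, the last pair sharing much of their transcript sequence (1873 of 2937 stretches of 31 bases in Hspa1a), so that their split of UMIs is uncertain. Jun, Fos and Egr1 did not meet the rule (Fos 957 ± 272 against 1143 ± 416 CPM, SD, n = 8). Of 19 cell cycle genes Stmn1 was higher (279 ± 57.6 against 82.6 CPM), and Mki67, a marker of dividing cells, was detected in 22.5% of the 814 cells, 38 of them with at least 10 UMIs. Summed over the cell cycle list, libraries 1 and 2 of both groups were at 669 to 991 CPM and libraries 3 and 4 at 1810 to 1934 CPM. The reason for this split by library number was not tested. No member of 13 circadian genes met the rule. Of 21 integrin and basement membrane genes 2 were lower and 0 higher.

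The share of chosen cells was then compared between treatments, which the rule did not use. They were 9.35%, 3.40%, 9.16% and 6.44% of filtered cells in PBMCsec libraries 1 to 4, and 5.35%, 8.56%, 6.75% and 6.42% in vehicle libraries 1 to 4. PBMCsec 1 and 3 were highest and PBMCsec 2 lowest, so the vehicle libraries fell within the PBMCsec range. The limits on genes and mitochondrial UMIs bear on this order, since 91 barcodes of PBMCsec 2 met the gene rule and 18 of them passed the limits. Among all barcodes, with no limits, the shares were 6.28%, 4.84%, 7.70% and 4.42% in PBMCsec and 6.07%, 7.62%, 5.12% and 4.40% in vehicle libraries, with vehicle 4 the lowest. Within the limits, means were 7.09 ± 2.79% and 6.77 ± 1.34% (SD, n = 4 each), a difference of 0.319 percentage points (exact two-sided permutation test, p = 0.771, adjusted p = 0.857 over 4 shares). The smallest p this design allows is 0.0286. The exact permutation tests for the other 3 sets gave adjusted p-values of 0.857, 0.857 and, for the remaining keratinocytes, 0.571 (9.26 ± 1.42% against 13.4 ± 4.44%).

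**Figure D4:**
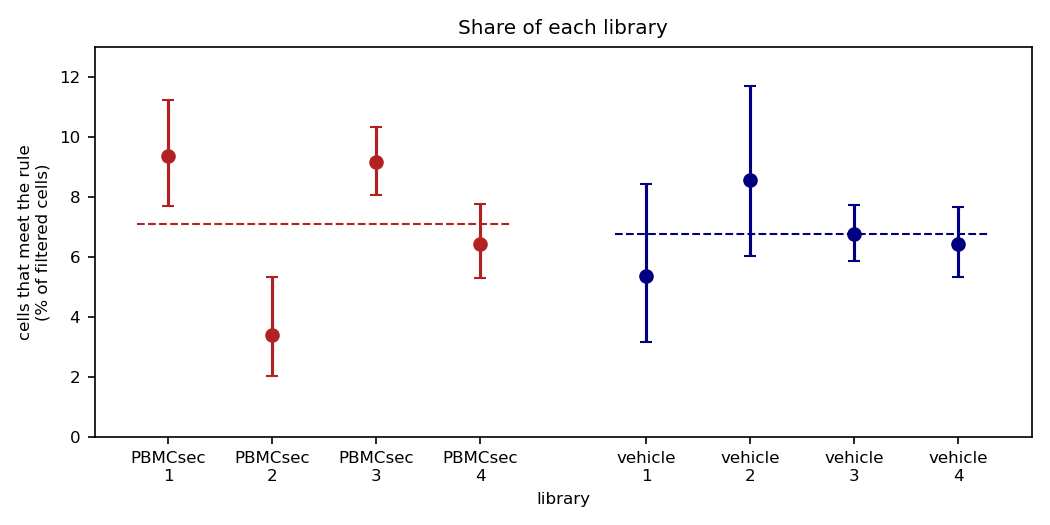
Percent of filtered cells that meet the rule in each library, with exact (Clopper-Pearson) 95% intervals that cover counting error only and dashed lines at the group means of 7.09% (PBMCsec) and 6.77% (vehicle). PBMCsec 2 (3.40%) is the lowest, and the 4 vehicle libraries fall within the range of the PBMCsec libraries.

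For the response to PBMCsec within these cells, UMIs were summed per library and edgeR fitted 8277 genes (quasi-likelihood test, p-values adjusted after Benjamini and Hochberg). No gene passed an adjusted p of 0.05 (0% called in either direction, smallest adjusted p 0.420), while 94 genes (1.14%) were higher and 80 (0.967%) lower in PBMCsec at an unadjusted p under 0.05. With the library number as a block in edgeR, 4 genes passed, Sprr1a, Hbb-bs and Cd74 higher (0.0362%) and Fabp5 lower (0.0121%), and DESeq2 called Cd74 alone. Library values of 86 genes (1.04%) in PBMCsec lay above all vehicle values, and those of 74 (0.894%) lay below. Log2 fold changes of the 8 genes that chose the cells ran from -0.40 for Fcgbp to 0.25 for Aldh3a1, given as a description only. Sprr1a and Shisa2 belong to the rule's exclusions, so their levels are shaped by it as well.

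Genes with the smallest p in the higher direction were Cd74, H2-Aa, Ppif, H2-Ab1 and Serpinb2. None of them passed the adjusted threshold in edgeR without the block and with low counts removed. Cd74 alone of them passed with the block and in DESeq2. With no filter on low counts all of them passed (largest edgeR adjusted p 0.00282, for Ppif). Their log2 fold changes hardly moved (Cd74 1.72 without and 1.70 with the filter), so the smaller p-values did not come from larger differences. Cd74 was at 328, 131, 141 and 116 CPM in PBMCsec libraries and at 53.5, 84.6, 67.5 and 32.2 CPM in vehicle libraries. The groups did not overlap, with PBMCsec 1 the highest and vehicle 4 the lowest. The log2 fold change was 1.70 (SE 0.34, edgeR adjusted p = 0.420), and with the block it was 1.51 (edgeR adjusted p = 0.0345, range over 18 alternatives 2.92e-07 to 1.0). H2-Aa was at 88.7, 33.9, 43.0 and 58.1 against 11.9, 23.8, 27.3 and 21.1 CPM, again without overlap (log2 fold change 1.39, SE 0.31, edgeR adjusted p = 0.683). H2-Ab1 was at 137, 59.3, 69.5 and 60.7 against 5.94, 52.9, 32.3 and 28.2 CPM, with vehicle 2 close below PBMCsec 2 (log2 fold change 1.43, SE 0.34, edgeR adjusted p = 0.683). H2-Eb1, named after its values were seen, overlapped at 84.2, 12.7, 30.9 and 37.3 against 5.94, 23.8, 23.0 and 6.04 CPM.

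Class II RNA was concentrated in few of the chosen cells. Cd74 was detected in 161 of 814 cells (19.8%), and 30 cells with at least 10 UMIs held 65.4% of all Cd74 UMIs, 25 of them among the 454 cells of PBMCsec and 5 among the 360 cells of vehicle libraries. PBMCsec 1 alone held 12 of the 25, and without it 13 of 353 PBMCsec cells reached 10 UMIs. Without the highest cell of each library Cd74 was still at 76.9 CPM or more in PBMCsec and at 55.7 CPM or less in vehicle libraries, while H2-Ab1 overlapped (30.8 CPM in PBMCsec 2 and 38.3 CPM in vehicle 2). Of these 30 cells, 96.7% also had an H2-Ab1 UMI, against 12.9% of the 653 cells without Cd74. A UMI of another gene of the immune list (Cd3e, Cd3d, Trac, Lyz2, Cd68, Tyrobp, Fcer1g, Cd52, Cd207 or S100a8) was found in 6.67% of the 30 cells, in 14.5% of the 131 cells with 1 to 9 Cd74 UMIs and in 7.81% of the cells without Cd74. The 30 cells carried a median of 6 of the 8 chosen genes and 11575 UMIs.

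Immune markers beside the result were as follows. The whole immune list of 12 genes summed to 427, 208, 193 and 187 CPM in PBMCsec libraries and 65.4, 116, 111 and 75.5 CPM in vehicle libraries, with Cd74 the most abundant. Without Cd74 and H2-Aa the other 10 summed to 9.75, 42.4, 9.17 and 13 CPM against 0, 7.93, 15.8 and 22.1 CPM, groups that overlap, and to 8370 CPM in Ptprc-positive cells. PBMCsec 2 was the highest library of the chosen cells here, and all 8 of its Cd3e UMIs came from 1 cell. In Ptprc-positive cells Cd74 averaged 11245 CPM in PBMCsec and 11201 CPM in vehicle libraries. In the remaining keratinocytes it was at 12.0, 5.43, 58.0 and 3.65 CPM against 3.92, 1.42, 9.93 and 5.32 CPM, groups that overlap. The ratio of Cd74 to H2-Ab1 UMIs was 2.09 in the chosen cells, 1.0 in the remaining keratinocytes and 2.53 in Ptprc-positive cells. The part of free or attached leukocyte RNA in the result was not tested.

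Serpinb2, a serine protease inhibitor of keratinocytes, was at 435, 203, 315 and 142 CPM in PBMCsec and 5.94, 95.1, 132 and 105 CPM in vehicle libraries (log2 fold change 1.59, SE 0.40, edgeR adjusted p = 0.908). Vehicle 1 was far below the other vehicle libraries, and PBMCsec 4 was close to vehicle 3. The log2 fold change was 0.09 when 3 of the 8 genes were required and 0.32 when 5 were. Single cells carried much of the RNA, with 380 of 490 UMIs of PBMCsec 1 and 252 of 652 of PBMCsec 3 in 1 cell each. Without the highest cell of each library the values were 99.1, 89.4, 195 and 81.8 CPM against 0, 30.4, 99.0 and 68.6 CPM, which overlap, as did the shares of cells with a UMI. Ppif, mitochondrial cyclophilin D, was at 17.7, 55.1, 37.2 and 28.6 against 17.8, 13.2, 5.03 and 11.1 CPM, so PBMCsec 1 and vehicle 1 were level on this scale (log2 fold change 1.78, SE 0.41, edgeR adjusted p = 0.683).

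In the lower direction the smallest p-values were those of Pfn2, Fabp5, Shisa2, Nlrp10 and Plat. With no filter on low counts Pfn2, Fabp5 and Shisa2 passed the adjusted threshold, and Nlrp10 and Plat did not. Fabp5 was at 36.4, 84.7, 54.1 and 62.4 CPM in PBMCsec and 47.5, 238, 189 and 158 CPM in vehicle libraries. Vehicle 1 lay among the PBMCsec libraries and the other 3 vehicle libraries above all of them (log2 fold change -1.49, SE 0.34, edgeR adjusted p = 0.683). With the block the log2 fold change was -1.35 (edgeR adjusted p = 0.0276), and without vehicle 1 it was -1.73 (edgeR adjusted p = 0.0485, range over the alternatives 1.76e-05 to 1.0). The log2 fold change was -2.24 at the 5% mitochondrial limit and -0.67 with 5 of the 8 genes required. One cell held 78 of the 90 UMIs of vehicle 2, and without the highest cell of each library the values were 27.1, 22.3, 43.4 and 57.2 CPM against 13.1, 33.1, 161 and 107 CPM, so that vehicle 3 and 4 alone lay above PBMCsec. In the remaining keratinocytes Fabp5 averaged 1276 CPM in PBMCsec and 1419 CPM in vehicle libraries, with ranges of 307 to 1999 and 508 to 2821 CPM that overlap. Pfn2, a profilin that binds actin, was at 8.87, 4.24, 12.1 and 8.67 against 17.8, 34.4, 41.7 and 24.1 CPM without overlap (log2 fold change -1.65, SE 0.33, edgeR adjusted p = 0.420). It was -0.79 with 5 of the 8 genes required, and vehicle 2 fell to 5.52 CPM without the cell that held 11 of its 13 UMIs. Plat, tissue plasminogen activator, and Nlrp10 did not overlap either (log2 fold changes -0.99 and -0.97), and Shisa2, a gene of the rule's exclusions, did.

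Sprr1a and Hbb-bs, called with the block and with no filter on low counts, were examined after their values were seen. Sprr1a, a cornified envelope precursor that the rule uses as an exclusion, was at 4.43, 50.8, 166 and 21.7 CPM in PBMCsec and 0, 15.9, 23.0 and 9.06 CPM in vehicle libraries, given as a description since the rule limits its detection. The log2 fold change of 2.13 fell to 0.49 without PBMCsec 3. One cell held 280 of the 344 UMIs of PBMCsec 3, which would be at 30.9 CPM without it. Hbb-bs, a beta globin of red cells, was at 7.09, 12.7, 24.1 and 52.9 against 5.94, 2.64, 2.16 and 12.1 CPM (log2 fold change 2.19 without and 2.47 with the block, edgeR adjusted p = 1.0 and 0.0276, range 0.000705 to 1.0). Without the block its log2 fold change ranged from 1.43 without PBMCsec 4 to 3.35 without vehicle 4. The remaining keratinocytes had similar Hbb-bs values (10.3, 16.3, 24.1 and 56.6 against 0, 5.69, 5.86 and 12.5 CPM). Ptprc-positive cells were at 12.3, 68.2, 156 and 117 CPM in PBMCsec and at 1.11, 2.36, 408 and 475 CPM in vehicle libraries, with the higher mean in vehicle. The part of red cell RNA in the result was not tested.

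**Figure D5:**
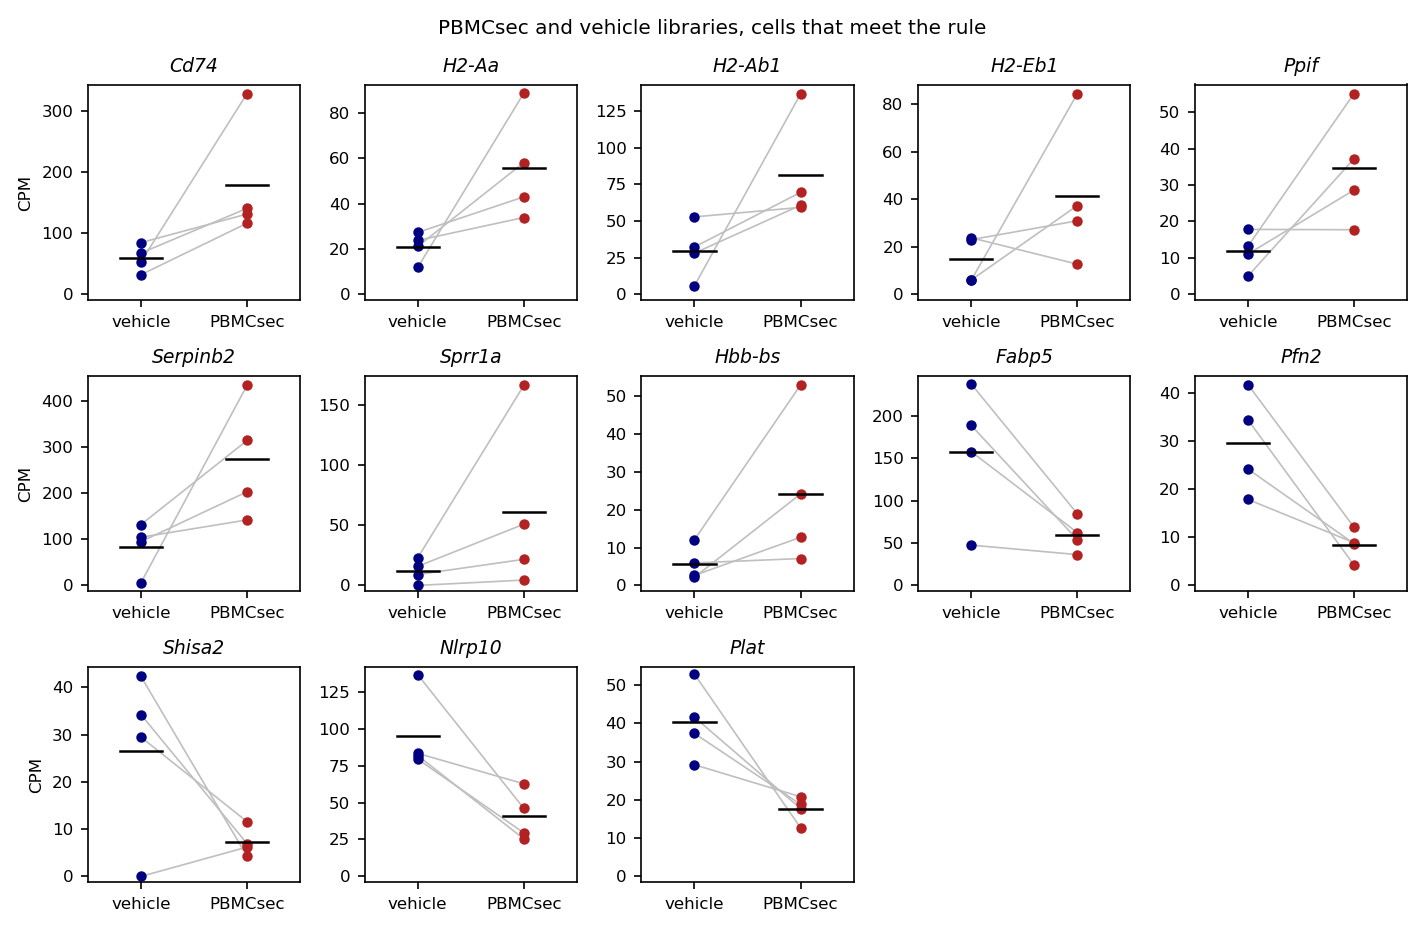
CPM of 13 genes in the cells that meet the rule, 1 point per library, with thin lines joining libraries of the same number and a black bar at each group mean (every axis includes 0). Cd74, H2-Aa, H2-Ab1 and Serpinb2 are higher in all PBMCsec libraries than in any vehicle library, while Fabp5 overlaps through vehicle 1 (47.5 CPM).

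By list, edgeR without the block and with low counts removed called 0 genes between treatments, and the 4 genes called with the block are those named above. Of 16 tested antigen presentation genes, 4 (H2-Aa, H2-Ab1, H2-Eb1 and Cd74) were higher in PBMCsec at an unadjusted p under 0.05, where 1.14% of all 8277 genes were, and the median log2 fold change over the list was -0.01 beside -0.0008 over all genes. H2-K1, H2-D1, B2m and Psmb8 gave log2 fold changes of -0.05, 0.04, 0.04 and 0.17. At the same unadjusted limit 3 of 8 tested antimicrobial and wound genes were higher (median log2 fold change 0.43), a list that holds Sprr1a and Defb6 of the rule. Of 10 tested lipoxygenase and barrier lipid genes 3 were higher (median 0.01). Other lists went down at this limit, which 0.967% of all genes met in the lower direction. Of 40 tested transcription factors 4 were lower and 0 higher, and of 11 Wnt receptors 2 were lower and 0 higher. Among 8 tested bulge markers 1 was higher and 2 were lower. Among 9 tested interferon-stimulated genes, 7 estimates were above 0 with a median of 0.56, beside 4122 of all 8277 genes above 0. Ifitm3 alone of the 9 had an unadjusted edgeR p under 0.05 (log2 fold change 0.70). The 24 tested xenobiotic genes had a median of 0.07, the 19 cell cycle genes 0.12 and the 26 stress genes 0.08. For BMP and activin ligands and receptors the medians were -0.09 and -0.01 (6 and 9 genes tested), and for Wnt ligands and receptors -0.14 and -0.15 (3 and 11 genes tested).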

How the data were processed

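Single-cell RNA libraries of 4 PBMCsec and 4 vehicle skin samples were analysed from the deposited UMI count matrices of 31053 genes, which the authors made with Cell Ranger (version 3.0.2 per the labels and matrix headers) on mm10. The method text of the study names another Cell Ranger version. Gene coordinates are those of GENCODE M21. The members and gene lists were chosen with earlier results of these data known.

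Barcodes were limited to 500 to 4000 genes, 20000 UMIs and 10% mitochondrial UMIs, and the gene rule was applied to each. Scrublet called 19 cells as doublets (0.171%), too few to count as having worked, so no cell was removed and an alternative left out the top 5% of scores. UMIs were summed per library with at least 10 cells and tested with edgeR 4.0.16 (R 4.3.3; low counts removed by filterByExpr, scaling by TMM, adjusted p under 0.05 after Benjamini and Hochberg). Whether groups overlap was judged on TMM-scaled CPM. Col1a1, Col1a2 and Col3a1 were left out of the calls and Gm42418, Gm17056 and Gm26917 out of the tests, as in the study. Shares were compared with exact permutation tests (scipy 1.17.1). Intervals and floors cover counting error only.

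Comparisons with other keratinocytes carry no test, since the cells were chosen on expression. Named genes were the 8 rule genes, the 24 highest and 8 lowest ratios against the remaining keratinocytes, the 6 highest and 4 lowest against each gate, the 5 smallest p-values in each treatment direction, and list members. Cells of the same library number in both groups deviated together (correlations across genes of 0.169, 0.143, 0.166 and 0.468), so the number was taken as a pairing, a hint from the data since no source states what it marks. Of pairs with unlike numbers, PBMCsec 4 with vehicle 3 (0.185) exceeded 0.169, 0.143 and 0.166, and PBMCsec 1 with vehicle 2 (0.154) exceeded 0.143. The correlations thus did not single out this pairing. They also come from the same counts that were tested with the block. Simulated counts with known changes (8064 genes) were recovered in 53% of 100 genes at 2-fold and 99.0% of 97 at 4-fold, with 5 false calls. The changed genes were drawn from those with higher counts, and all counts followed the fitted trend of spread. These shares therefore need not hold for sparse genes or for genes carried by few cells. Alternatives changed the mitochondrial limit, number of genes required, doublets, block, tool (DESeq2 1.42.0), size factors, filter, cells per library and each replicate, and, chosen after seeing the data, levels without the highest cell of a gene and shares of all barcodes with no limits. A gene of the lists is not reported here, and neither are the counts of its lists.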

Additional observations from a re-analysis of the deposited data

Results flagged for a closer look

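In groups of 4 libraries, a value was singled out when its gap to the nearest other library exceeded Dixon's 95% critical share of the range of its group, a limit that chance passes in about 1 of 20 groups. Of 50 groups examined, 4 held such a library. Cd74 was at 328 CPM in PBMCsec 1, against 116 to 141 CPM in the other 3 PBMCsec libraries. H2-Ab1 was at 137 CPM in the same library, against 59.3 to 69.5 CPM in the other 3. Nlrp10 was at 137 CPM in vehicle 1, against 79.5 to 83.4 CPM in the other vehicle libraries, and vehicle 1 had 17 cells. Alox12e was at 226 CPM in vehicle 3, against 410 to 440 CPM in the other vehicle libraries. Without PBMCsec 1 the log2 fold change of Cd74 was 1.23, the lowest of its values without 1 library (highest 1.89).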

How the results depend on the processing

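The difference in share (0.319 percentage points) turned negative with at least 3 of 8 genes (-0.604), with at least 5 of 8 (-0.0672) and with cells thinned to 3000 UMIs (-0.550), and ranged from -0.436 to 1.55 when 1 library was left out (negative without PBMCsec 1, PBMCsec 3 at -0.371 and vehicle 1 at -0.156). It was 0.582 at the 5% mitochondrial limit and 3.49 as a share of keratin cells (exact permutation p = 0.457), and 0.0066 among all barcodes with no limits. With the replicate number as a block it stayed at 0.319, and 4 pairs cannot give an exact p under 0.125. The number of genes called between treatments was 4 with the block, 1 with DESeq2, 44 with no filter on low counts (30 higher, 14 lower), 1 in the 6 libraries with at least 20 cells (Fabp5) and 0 to 1 with 1 library left out (Fabp5 without vehicle 1). It was 0 with the 5% mitochondrial limit, either other number of genes, top Scrublet scores removed, RLE size factors or all libraries with 1 cell. Single cells carried some of the 44 genes. Ptx3 had 65 of its 70 UMIs in 1 cell of PBMCsec 3, and Cst6 had 271 of the 324 UMIs of vehicle 4 in 1 cell. Log2 fold changes that changed sign were those of Fst (0.29 at the 5% mitochondrial limit, which also left 6 libraries, 0.10 with 3 of 8 genes, 0.13 with at least 20 cells, -0.36 to 0.085 with 1 library left out), Alox12e (0.18 at the 5% limit), Foxc1 (0.46 and 0.14 under the first 2 of these, -0.27 to 0.19) and Zmynd15 (0.36, 0.10 and 0.28 under the first 3, -0.43 to 0.20). For these the cause was not tested. Of 372 values for 21 genes, 338 kept direction and side of the threshold, 18 gained a call and 16 changed sign. The block changed no call beyond the 4 genes. Vehicle 1 and PBMCsec 2 rest on 17 and 18 cells.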
